A study of Mus musculus with 16 samples.

Results

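Cytotoxic lymphocytes, the natural killer (NK) cells and CD8+ T cells that are abundant in liver, kill target cells by releasing granules. Perforin opens the target membrane, and granzymes, the serine proteases stored beside it, enter and start cell death. Surface receptors decide whether the granules are released, and several of them signal through small adaptor proteins that they share. The genes described here were 6 such granule and receptor genes, chosen by name with earlier results of these data known. Prf1, Gzma, Gzmb and Nkg7 stood for the granules, and Klrd1 and Ncr1 for the receptors. In RNA from quiescent hepatic stellate cells (qHSCs) all 6 had a row in the deposited table of 5716 rows. In activated stellate cells (aHSCs) after WT1 deletion, 1 of the 6, Gzma, had a row among 568 in the GFP-intermediate table, and 0 had a row among 231 in the GFP-high table.

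qHSCs were obtained by density centrifugation from uninjured WT1CreERT2;Ai14 mice of C57/Bl6 strain. Tamoxifen had been given at E10.5, which switches on the RFP of the Ai14 reporter for good in cells that then use the WT1 locus, and livers were taken after weaning. Lineage label (RFP)-positive and label-negative cells of the same 3 animals were sorted by flow cytometry, so that both groups share the same inherited genotype. Their sex is male in the sample labels but female in the Methods. aHSCs were RFP-positive cells of adult male C57/Bl6 mice given carbon tetrachloride for 8 weeks. Controls were PDGFRbCre;WT1_+_GFP;Ai14 and deleted animals PDGFRbCre;WT1_fl_GFP;Ai14, with 3 samples each for GFP-high and 2 each for GFP-intermediate cells (GFP low in the labels), 1 of which pooled 2 animals. The GFP-intermediate samples came from animals that also gave GFP-high samples, so the fractions are not independent of each other. The reporter allele replaces 1 copy of WT1 in controls too, and PDGFRbCre is constitutive, so RFP marks any cell whose lineage has used that promoter.

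Each value is the authors' FPKM for a whole group (fragments per kilobase of transcript, scaled to library size, so that levels of different genes can be compared per length). Values of single animals are not in these tables, so that an error, a depth or a new test cannot be given. Neighbours in any order of levels may differ by less than the spread. In all 3 tables the rows with a gene name are those listed with an authors' adjusted p-value under 0.05, so a gene without a row has an unknown level. A difference of at least 2-fold between the group values was taken as the size rule. By this rule 43.5% of the 5716 rows in the qHSC table were higher in label-negative cells and 37.7% higher in label-positive cells.

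RNA of several cell types was present in both qHSC fractions. Of 20 genes typical of stellate cells 12 had a row, and 3 of these, Dcn, Hgf and Vipr1, reached an FPKM of 10 in either group. Pdgfrb and Ngfr were below 1 in both groups, and Lrat, Des and Reln had no row. All 15 sinusoidal endothelial markers had a row, and their FPKM reached 1022.5 in label-negative against 2787 in label-positive cells, both for Clec4g. The rows therefore describe the sorted fractions as labelled, and these values do not show which cells in them carried a transcript.

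The start regions of the member genes are shown because the genes were all higher in the same fraction. The sequences are those of RefSeq (GRCm38.p6), found by symbol for 5 of the 6 members, with Klrd1 named only. Each is written 5′ to 3′ on the strand of its gene and ends at the last base before the outermost start that RefSeq or GENCODE vM21 gives. Capitals mark TGTGGT or its reverse complement ACCACA, the core letters bound by RUNX factors, and in Prf1 also GGAAGT or ACTTCC, letters bound by many ETS factors.
Prf1 (chr10:61297586-61297750, plus strand, 165 bases): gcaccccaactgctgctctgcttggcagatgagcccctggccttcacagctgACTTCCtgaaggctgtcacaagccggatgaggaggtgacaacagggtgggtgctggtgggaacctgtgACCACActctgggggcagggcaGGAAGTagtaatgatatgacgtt
Gzma (chr13:113100982-113101231, minus strand, 250 bases): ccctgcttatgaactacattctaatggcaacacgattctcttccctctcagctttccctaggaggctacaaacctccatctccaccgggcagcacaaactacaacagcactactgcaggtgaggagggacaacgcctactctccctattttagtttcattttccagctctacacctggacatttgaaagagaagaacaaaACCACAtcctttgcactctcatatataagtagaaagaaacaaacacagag
Gzmb (chr14:56262335-56262584, minus strand, 250 bases): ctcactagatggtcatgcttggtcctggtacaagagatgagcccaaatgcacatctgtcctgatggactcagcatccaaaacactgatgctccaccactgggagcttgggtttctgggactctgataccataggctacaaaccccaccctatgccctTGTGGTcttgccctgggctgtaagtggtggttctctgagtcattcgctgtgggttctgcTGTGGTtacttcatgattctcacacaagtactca
Nkg7 (chr7:43436888-43437072, plus strand, 185 bases): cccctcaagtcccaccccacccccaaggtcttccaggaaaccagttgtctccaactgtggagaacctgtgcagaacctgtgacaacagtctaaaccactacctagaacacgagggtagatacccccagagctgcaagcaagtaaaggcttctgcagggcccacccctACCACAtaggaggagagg
Ncr1 (chr7:4337465-4337714, plus strand, 250 bases): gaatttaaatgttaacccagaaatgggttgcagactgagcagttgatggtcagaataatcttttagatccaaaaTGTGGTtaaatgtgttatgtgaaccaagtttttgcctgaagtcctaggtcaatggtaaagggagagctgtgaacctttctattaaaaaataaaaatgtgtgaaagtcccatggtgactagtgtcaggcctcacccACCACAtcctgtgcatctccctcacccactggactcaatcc
TGTGGT or its complement was found in all 5 stretches, against 9.52% of all 32851 RefSeq promoter windows at 165 bases, 10.7% at 185 and 14.0% at 250. Gzmb and Ncr1 held it at 2 positions each, and the position nearest to the end of each stretch began between 18 bases before it in Nkg7 and 50 in Gzma. GGAAGT or its complement was found in Prf1 alone, at 2 positions, against 11.8% to 19.7% of all windows. The T-box letters AGGTGTGA or TCACACCT were in 0 of the 5, against 0.764% to 1.12% of all windows. The positions did not overlap. The windows of 165 and 185 bases were the 5′ part of each 250-base window, as the Prf1 and Nkg7 stretches were of theirs. Such shortened windows stop before the end of the full window, whatever the start of their gene. The letters were chosen after the sequences had been seen, so the counts beside the shares of all windows are no test of enrichment. A match is a description of the letters, not a binding site, and regulation by these factors was not tested.

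All 6 genes were higher in lineage label-negative than in label-positive qHSCs, by 16.1-fold to 31.0-fold. The sum of their FPKM was 619.6 in label-negative against 26.3 in label-positive cells, a 23.6-fold difference. Their median log2 ratio, label-positive over label-negative, was -4.51, and that of all 5584 rows listed above 0 in each group was 0.64. All 6 passed 2-fold, the limit that 43.5% of rows passed in this direction. All 6 also passed 4-fold, which 26.1% of rows did, and 16-fold, which 6.96% did. The 16-fold limit lies just below the smallest of the 6 differences, 16.1-fold, so the choice of limit fixed that count. With 1 value per group the difference could not be set here against the spread between the 3 animals. The authors' adjusted p-value from Cuffdiff2 was under 0.05 for each of the 6. In such bulk RNA, fewer cells of a type and less RNA per cell cannot be told apart.

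**Figure D1:**
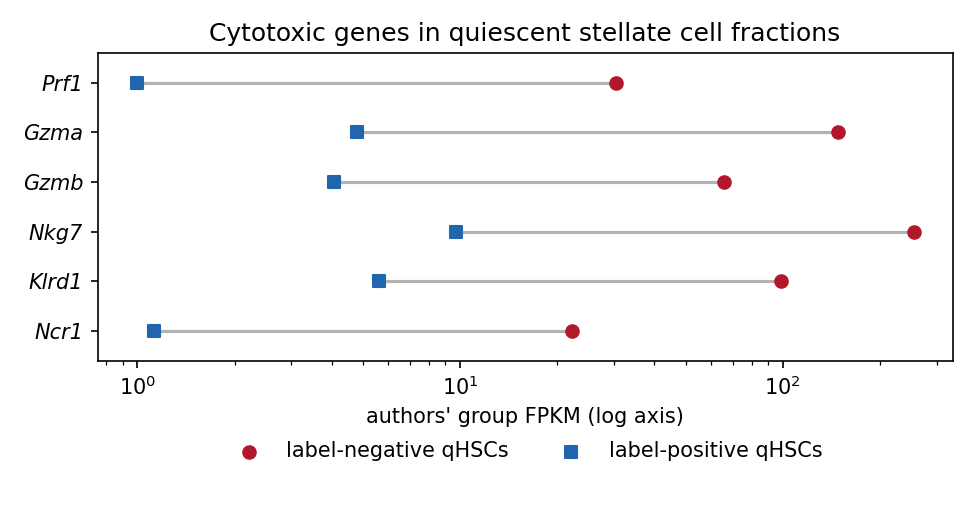
Authors' group FPKM (log axis) of the 6 genes in label-negative (circles) and label-positive (squares) qHSCs, 1 value per group and gene. In each gene the label-negative value lies to the right, from 22.2 for Ncr1 to 254 for Nkg7, and the label-positive values lie between 0.994 and 9.71.

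Among the granule effectors, Prf1 (ENSMUSG00000037202), which encodes the pore-forming perforin, had an FPKM of 30.3 in label-negative against 0.994 in label-positive cells, a 30.5-fold difference. Gzma (ENSMUSG00000023132), a tryptase that cleaves after basic residues, had 149 and 4.79, and its 31.0-fold difference was the largest of the 6. Gzmb (ENSMUSG00000015437), which cleaves after aspartate and activates caspases, had 65.6 and 4.06, and its 16.1-fold difference was the smallest. The label-negative values of these 3 genes did not meet the label-positive values of any of the 6. Gzma stood to Prf1 in nearly the same proportion in both fractions, 4.91 in label-negative against 4.82 in label-positive cells. Gzma over Gzmb was 2.27 in label-negative against 1.18 in label-positive cells, so that the granzymes lay closer to each other where both were low. No error can be given for these proportions.

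Nkg7 (ENSMUSG00000004612), a membrane protein of cytotoxic granules that is needed for their release, was the most abundant member in both fractions. Its FPKM was 254 in label-negative against 9.71 in label-positive cells, a 26.2-fold difference. It made up 41.1% of the summed FPKM of the members in label-negative against 36.9% in label-positive cells. Among all rows of the table it stood at place 209 in label-negative and at place 2537 in label-positive cells.

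Of the receptors, Klrd1 (ENSMUSG00000030165), which encodes CD94 and pairs with NKG2 proteins to read a non-classical MHC molecule, had an FPKM of 98.4 in label-negative against 5.61 in label-positive cells. This is a 17.5-fold difference. Ncr1 (NKp46, ENSMUSG00000062524), an activating receptor found mainly on NK cells and other innate lymphocytes, had 22.2 and 1.12, a 19.7-fold difference. Klrd1 was 4.44 times Ncr1 in label-negative against 4.996 times in label-positive cells.

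From high to low the FPKM order was Nkg7, Gzma, Klrd1, Gzmb, Prf1, Ncr1 in label-negative cells, and Nkg7, Klrd1, Gzma, Gzmb, Ncr1, Prf1 in label-positive cells. The exchanged neighbours, Gzma with Klrd1 and Prf1 with Ncr1, were close in label-positive cells, and whether they differ beyond the spread cannot be said. The folds of the 6 genes lay within 1.92 times of each other. Of those 5584 rows, 1.56% had a lower log2 ratio than Gzma and 4.82% a lower one than Gzmb, and 183 rows lay within the range of the members, the members included.

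**Figure D2:**
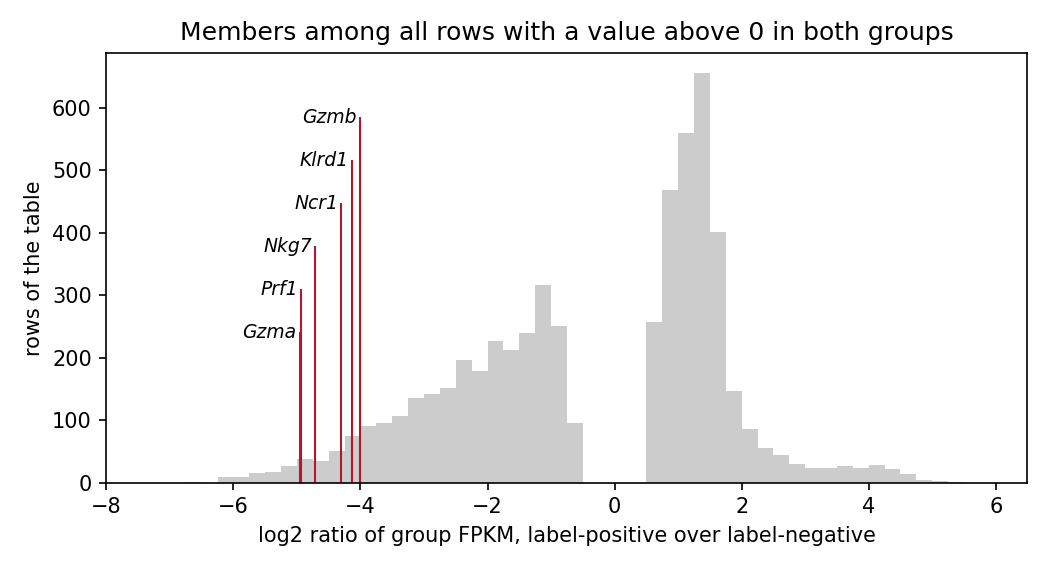
Histogram of the log2 ratio of group FPKM, label-positive over label-negative, for the 5584 rows listed above 0 in each group, with a line at the ratio of each member (line height has no meaning). The members stand in the left tail between -4.96 for Gzma and -4.01 for Gzmb, and few rows lie near 0 because the table holds called genes only.

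The rows most like each member were found by the distance over log2 FPKM in the 2 groups, which is a likeness of 2 values only. The nearest to Gzma were Trbc2 (FPKM of 155 and 4.72), Cd3g and Ms4a4b, of which the first is a T cell receptor constant segment and Cd3g a subunit of the T cell receptor complex. The nearest to Nkg7 were Sept1, Trac and CAAA01098150.1. The nearest to Klrd1 were Acap1, Il2rb, the receptor chain for interleukins 2 and 15 (94.5 and 5.10), and Rasal3. Those of Prf1 were Ighv1-14, Trbv12-2 and Btla, those of Gzmb were Ctse, Iglv3 and Igkv6-17, and those of Ncr1 were Ighv1-80, Trbv13-3 and Gm19585.

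The wider cytotoxic programme was described with 129 genes in 8 lists, of which 97 had a row. The lists, like the 6 members, were chosen with earlier results of these data known, so their counts are no test. Leaving out the 6 members, 80 of 91 rows were at least 2-fold higher in label-negative cells and 6 were higher in label-positive cells, with a median log2 ratio of -3.55. The share of all rows at least 2-fold higher in label-negative cells was 43.5%. Of these 91 rows, 27 had a log2 ratio within the range of the members, 7 a lower one and 57 a higher one.

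Of 13 other granule genes 6 had a row. Fasl, the ligand by which cytotoxic cells trigger death receptors, had an FPKM of 18.3 in label-negative against 1.02 in label-positive cells, and Ctsw, a cathepsin of cytotoxic lymphocytes, had 71.2 and 3.63. Gzmm had 5.21 and 0.717, and Gzmc 1.33 and 0.147. Ctsc, the peptidase that activates granzymes and is used by many myeloid cells too, had 116 and 52.0, a 2.22-fold difference. Tnfsf10 (TRAIL) went the other way, with 19.2 and 42.1. Gzmb and Gzmc belong to a family of similar neighbouring genes, so their reads could have been divided between copies.

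All 19 killer cell lectin-like receptor genes with a row besides Klrd1 were at least 2-fold higher in label-negative cells, 18 of them at least 4-fold, with a median log2 ratio of -4.25. The genes for the NKG2 partners of CD94, Klrc1, Klrc2 and Klrc3, had label-negative FPKM values of 18.8, 9.47 and 7.22. Klrd1 was 2.78 times their sum in label-negative against 2.94 times in label-positive cells. Klrk1 (NKG2D), an activating receptor for stress-induced ligands, had 59.3 and 5.08, and Klrb1c, which carries the NK1.1 antigen of C57BL/6 mice, had 20.6 and 1.19. The range ran from Klra8 (Ly49H), with 5.16 and 0.122, to Klra2, with 24.1 and 7.84. Klra2 and Klra17, with 22.3 and 4.65, had the smallest differences of the family, 3.08-fold and 4.80-fold. Klra and Klrc genes are close copies of one another, and reads could have been shared between them.

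**Figure D3:**
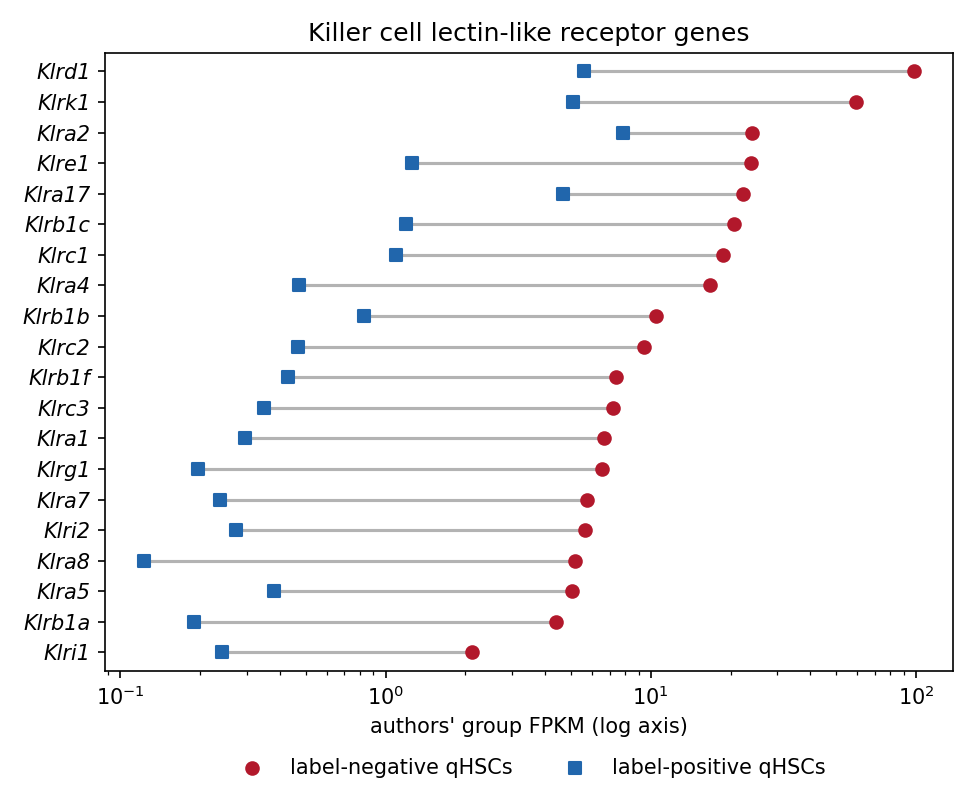
Authors' group FPKM (log axis) of the 20 killer cell lectin-like receptor genes with a row, in label-negative (circles) and label-positive (squares) qHSCs, ordered by the label-negative value. Klrd1 leads with 98.4, 13 genes are below 1 in label-positive cells, and Klra2 and Klra17 show the shortest distances between the groups.

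Of the other receptors of cytotoxic cells, all 13 rows besides Ncr1 were at least 2-fold higher in label-negative cells. Crtam had an FPKM of 3.37 in label-negative against 0.0823 in label-positive cells, Cd226 (DNAM-1) 22.4 and 1.60, and Cd96 17.2 and 0.608. Fcgr3, an Fc receptor that macrophages also use, had the smallest difference of this list, 37.2 and 17.7. Among the adaptors and kinases 12 of 13 rows passed 2-fold in this direction. Cd247, the CD3 zeta chain through which Ncr1 and the T cell receptor signal, had 34.4 and 0.984, a 34.9-fold difference. Its alternative partner for Ncr1, Fcer1g, had 184 and 112, a difference of 1.64-fold. Hcst (DAP10), the adaptor of NKG2D, had 75.6 and 5.42, and Tyrobp (DAP12), an adaptor of activating NK receptors and of myeloid receptors, 428 and 124. Fcer1g and Tyrobp, which myeloid cells share, were with Sh2d1b1 (1.27 and 0.406) the 3 rows of the list with the smallest differences.

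Of the transcription factors of cytotoxic cells 8 of 9 rows were at least 2-fold higher in label-negative cells. Eomes and Tbx21 (T-bet), the T-box factors of NK and effector CD8+ T cells, had FPKM values of 10.8 and 0.305, and of 15.9 and 0.886. Runx3, a RUNX factor of cytotoxic T cells, had 41.6 and 2.42, a 17.2-fold difference. Prdm1 was 1.99-fold higher and did not pass. Of the cytokines, receptors and homing genes 16 of 17 rows passed, Ccl5 (575 and 22.3) with the lowest log2 ratio, -4.69. Ifng, the interferon of NK and T cells, had 83.4 and 6.49, and Xcl1 83.8 and 7.28. Itga1, an integrin that endothelial and stellate cells also make, was higher in label-positive cells, with 23.7 and 56.5.

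Of 10 rows for granule release machinery 6 were at least 2-fold higher in label-negative cells, which 43.5% of all rows were, and 1 in label-positive cells, with a median log2 ratio of -1.22. The lowest log2 ratios were those of Coro1a, an actin regulator of leukocytes, with an FPKM of 668 and 56.9, and of Was, the Wiskott-Aldrich actin regulator, with 37.0 and 5.52. Unc13d (Munc13-4), which primes granules for fusion, had an FPKM of 26.2 in label-negative against 11.2 in label-positive cells. Lamp2, a lysosomal membrane protein, had 307 and 699. Of 4 granzyme or related serpin inhibitor rows 3 were at least 2-fold higher in label-positive cells, which 37.7% of all rows were. Among them was Serpinb6a with 82.1 and 216. Serpinb9, the main inhibitor of granzyme B, had no row.

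Markers of T cells, B cells and some other leukocytes moved with the members, and their part in the result was not tested. All 15 T cell markers were at least 2-fold higher in label-negative cells, with a summed FPKM of 923 in label-negative against 36.7 in label-positive cells and a median log2 ratio of -4.84. For 7 of the 15 the log2 ratio lay within the range of the members, for 6 it was lower and for 2 higher. Cd8a, the co-receptor of cytotoxic T cells, had an FPKM of 51.6 and 1.24, and Cd4, that of helper T cells, 31.8 and 2.08. All 10 B cell markers were higher in label-negative cells too, with sums of 704 and 17.4 and a median of -5.40, and 8 of the 10 had a lower log2 ratio than any member. Cd3e and Cd79a, which encode signalling chains of the T and the B cell receptor, were above 0 in both fractions, at an FPKM of 101 and 3.68 and of 184 and 3.51.

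All 11 neutrophil marker rows were at least 2-fold higher in label-negative cells, with sums of 2415 and 481, a 5.02-fold difference, and a median log2 ratio of -2.37, and 10 of the 11 had a higher log2 ratio than any member. Mpo, at -6.25, had a lower one. Of 11 macrophage rows 8 were higher in label-positive and 1, Lyz2, in label-negative cells. All 15 sinusoidal endothelial rows were higher in label-positive cells, with log2 ratios between 1.28 and 1.86, and so were all 15 hepatocyte rows, with a median of 2.66. The stellate rows were divided, 7 higher in label-negative against 5 in label-positive cells. Of the remaining lists, mast cell and basophil genes were higher in label-negative cells in 8 of 9 rows (median log2 ratio -3.19), dendritic cell genes in 6 of 8 (median -2.20), plasma cell genes in 3 of 4 and platelet genes in the 1 row present, and both cholangiocyte rows were higher in label-positive cells. Among the mast cell and basophil rows the log2 ratios of Cpa3 (-4.79) and Prss34 (-4.33) lay within the range of the members and those of Mcpt4 (-5.84) and Tpsb2 (-5.66) below it, and the dendritic cell row of Ccr7 (-5.95) lay below it too. None of these differences between lists was tested, because genes are not replicates and each group has 1 value.

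**Figure D4:**
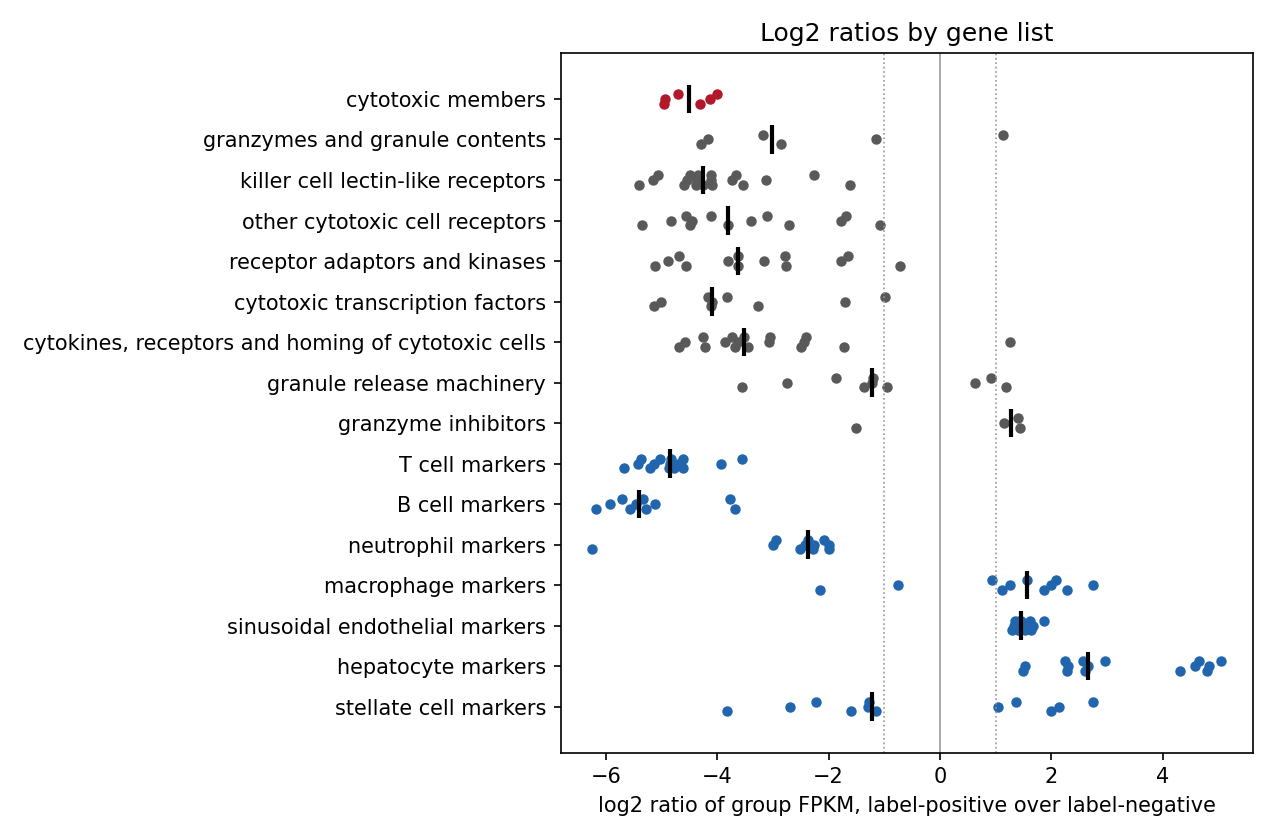
Log2 ratio of group FPKM, label-positive over label-negative, for each row of the lists (points), with the list's median (black bar), the members in red, other cytotoxic genes in grey without the members, and cell type markers in blue; dotted lines mark 2-fold. The members, at a median of -4.51, lie beside the T cell markers at -4.84 and to the right of the B cell markers at -5.40. They lie to the left of the neutrophil markers at -2.37, and on the other side of 0 from the endothelial markers at 1.45.

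After WT1 deletion Gzma was the single member with a value in aHSCs. Its FPKM in the GFP-intermediate fraction was 9.93 in control and 3.05 in WT1-deleted samples, 3.25-fold lower after deletion, a log2 ratio of -1.70. Centred on the median log2 ratio of the named rows, -1.33, it was -0.37, which is under 2-fold. At least 2-fold lower values after deletion were found in 62.8% of the 419 rows with a gene name, and 96 of 379 named rows listed above 0 in each group had a lower log2 ratio than Gzma. Gzma did not pass 4-fold, which 22.0% of named rows did, or 16-fold, which 7.4% did. Each group rests on 2 samples. Whether the tables share 1 FPKM scale is not known, so the levels of Gzma in qHSCs and aHSCs are given side by side without a comparison.

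The other 5 members and all 15 T cell markers had no row in the GFP-intermediate table. Of 10 B cell markers 1 had a row, Cd22, with an FPKM of 7.21 in control and 1.33 in deleted samples. Of the 123 other genes of the cytotoxic lists 7 had a row, all at least 2-fold lower after WT1 deletion. Of all 419 named rows 62.8% were lower by this limit. The 7 included Fcgr3, Fcer1g and Cx3cr1, which macrophages or other myeloid cells also make. All 9 rows of macrophage markers were lower after deletion, with sums of 3277 in control and 761 in deleted samples, and so were all 6 rows of neutrophil markers, with sums of 749.6 and 227. Stellate markers had 5 rows. Cygb was higher after deletion, with 39.5 in control and 96.5 in deleted samples. So were Pdgfra (18.8 and 43.4), Colec11 (2.92 and 10.7) and Rgs5 (1.41 and 8.20). Hgf was lower (9.45 and 3.35). The share of all named rows at least 2-fold higher after deletion was not counted, so these rows cannot be set against it. The part of these cell types in the value of Gzma was not tested. In the GFP-high table, where no cytotoxic gene of the 8 lists had a row, 6 of 6 neutrophil rows were at least 2-fold lower after deletion, with sums of 520.5 and 149, and 22.8% of its 123 named rows were. The median log2 ratio of the named rows there was 1.83.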

How the data were processed

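RNA was measured in 16 samples, and groups were taken from the sample titles. Reads were sequenced on an Illumina HiSeq, mapped with bowtie 2 and tested with Cuffdiff2 by the authors, who deposited 1 FPKM per group and called gene. The submitters' processing notes also list TopHat2 2.0.3, Cufflinks 2.0.1, DESeq2, mm9 and mm10 without a role, and normalisation options are not given in the sources used here. The authors' fold changes, p-values and q-values are in the deposited tables and were not used, except that the q-values were checked for the limit that the listed genes had passed. Depth is unknown.

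Ratios of group FPKM were computed without a pseudocount (Python 3.11.15, pandas 2.3.3, numpy 2.4.6; figures with matplotlib 3.10.9), and the calculation was checked on tables with known ratios. Loci without a gene name, 149 in the GFP-intermediate and 108 in the GFP-high table, were left out, and older and newer symbols of 1 gene were counted once. No test was made, since each group has 1 value. Members and lists were chosen with earlier results of these data known. Named were the members, list genes with the extreme ratios or needed to read a member, and the 3 nearest rows of each member. Alternatives were pseudocounts of 1 and 0.1, filters on low FPKM, a 4-fold limit, single-gene rows and centring on the median.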

Additional observations from a re-analysis of the deposited data

How the results depend on the processing

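All 6 members stayed at least 2-fold higher in label-negative qHSCs with pseudocounts of 1 and 0.1, with a filter that needs FPKM 1 in either group, with centring on the median of all rows, at 4-fold and with rows that name 1 gene only. With an FPKM of at least 1 in both groups 5 were left, because Prf1 was at 0.994 in label-positive cells. Of 97 rows of the cytotoxic lists, the members included, 86 were at least 2-fold higher in label-negative cells. The other settings gave between 72, at 4-fold, and 89, with centring, except that 53 were left with an FPKM of at least 1 in both groups, a filter that removes genes for a low label-positive value. A pseudocount of 1 moved the log2 ratio of Prf1 from -4.93 to -3.97 and that of Ncr1 from -4.30 to -3.45. Centring subtracted the median, which was 0.64 for the qHSC ratios and -1.33 for the GFP-intermediate ratios. The log2 ratio of Gzma after WT1 deletion was then -0.37, under 2-fold. The rows are called genes only, so this median does not stand for unchanged genes. No paired analysis was possible because the deposited values combine the animals of a group, and for the same reason no replicate could be left out.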
